A study of Mus musculus with 15 samples.

Results

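The 10 integrin genes Itgad, Itgax, Itgam, Itgal, Itgb2, Itga4, Itgb1, Itgav, Itgb3 and Itgb5 were followed by symbol through a table of raw read counts for 25639 gene symbols. All 10 symbols were present. The table came from RNA sequencing of RAW264.7, a transformed mouse line of macrophage character that the labels call wild type. Cells exposed to the peptide LCCL had received 10 µg or 1 µg and were taken after 24 h or after 6 h, which gave 4 LCCL groups beside untreated cells, with 3 libraries in each of the 5 groups. The labels give each dose as a mass with no volume, name no vehicle-treated group and do not say when untreated cells were harvested, so the peptide, its solvent and time in culture cannot be told apart in the comparisons with untreated cells. They also do not say whether the libraries of a group came from separate cultures, so a p-value here is set against a spread among libraries that may be technical in origin.

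Integrins are cell-surface adhesion receptors made of 1 α and 1 β chain. The chains reach the surface as a pair, so the transcript of either chain alone does not give the amount of receptor. The β2 chain, made from Itgb2, pairs with αL (Itgal, CD11a), αM (Itgam, CD11b), αX (Itgax, CD11c) and αD (Itgad, CD11d) to form the leukocyte integrins, which macrophages use to bind ICAM ligands, the complement fragment iC3b and fibrinogen. The α4 chain (Itga4) pairs with β1 (Itgb1) or β7 and binds VCAM-1 and fibronectin. The αv chain (Itgav) pairs with β1, β3 (Itgb3), β5 (Itgb5) and others, binds RGD-bearing proteins such as vitronectin and osteopontin, and with β3 or β5 takes part in the uptake of apoptotic cells and in osteoclast attachment.

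Levels are CPM, read counts scaled to library size after TMM normalization, and changes are log2 fold changes ± SE from edgeR's quasi-likelihood test. The words rise and fall are used where the Benjamini-Hochberg adjusted p over 12401 tested genes was under 0.05. All 10 integrin genes passed the filter on low counts, Itgad through its 24 h libraries alone. Library totals ran from 19085148 to 22434642 counts, and the first principal component, with 76.7% of the variance, put the 6 libraries taken at 24 h on one side and the other 9 on the other. One library stood apart, replicate 1 of 1 µg at 24 h. Its chi-square per gene was 14.2 and 16.1 against the other libraries of its group, while that pair gave 5.95 and pairs within the other groups gave 2.59 to 7.47. For the 10 members, calls that were lost without it are given both ways. For other genes no value without it is given. Of the 8 macrophage markers, Csf1r, Cd68, Cd14 and Lyz2 were abundant in every group and Mertk was at or near 0. The summed level of the 8 was 10649.9 to 11738 CPM at 10 µg for 24 h and 14469.8 to 15097 CPM in untreated cells. That sum is carried by the abundant genes, and of the 7 markers tested 3 were higher at 10 µg for 24 h, Fcgr1 (1.19 ± 0.11 on the log2 scale) and Adgre1 (0.58 ± 0.06) among them, and 4 were lower, Cd14 (-0.90 ± 0.06) and Csf1r (-0.77 ± 0.08) among them. Over all genes, 35.4% were higher and 34.9% were lower in this comparison with untreated cells. Markers of other cells were low. The 5 T and NK cell markers summed to 7.81 to 9.53 CPM at 10 µg for 24 h, against 3.66 to 4.33 CPM in untreated cells. Nearly all of that came from Lck, and Cd3e, Cd3g and Ncr1 had no count. The 6 dendritic cell markers ran from 0.894 to 2.65 CPM over all libraries with Ccr7 at 0, and the 6 neutrophil markers did not exceed 1.23 CPM, with Ly6g and S100a9 at 0. The 3 B cell markers did not exceed 0.820 CPM, the 5 platelet markers did not exceed 1.24 CPM and the 5 fibroblast markers did not exceed 0.101 CPM. In bulk RNA, fewer cells of a type and less RNA per cell cannot be told apart.

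The α chain genes Itgam, Itgax and Itgad sit side by side. In the GENCODE annotation of GRCm38, an older build than the GRCm39 named in the submitters' processing notes, Itgam lies at chr7:128062640-128118491, Itgax at chr7:128129547-128150657 and Itgad at chr7:128154376-128223816, all on the plus strand, and Itgal lies on the same chromosome at chr7:127296260-127335138. Itgb2 is at chr10:77530252-77565708, Itga4 at chr2:79255426-79333123, Itgav at chr2:83724397-83806916, Itgb1 at chr8:128685654-128733200, Itgb3 at chr11:104608000-104670476 and Itgb5 at chr16:33829665-33949338. RefSeq start-site windows of 300 bases, 250 before the start and 50 after it, were matched for 6 of the 10 genes. The windows of the neighbours Itgam (chr7:128062390-128062689) and Itgax (chr7:128129300-128129599) are printed because the 2 genes changed by different amounts at the same doses, and that of Itgav (chr2:83724147-83724446) because Itgav fell furthest. All are plus-strand sequence of GRCm38.p6, with capitals marking GAGGAA (the core bound by PU.1), TGAGTCA (an AP-1 site) or GGGCGG (a GC box) on either strand.
Itgam: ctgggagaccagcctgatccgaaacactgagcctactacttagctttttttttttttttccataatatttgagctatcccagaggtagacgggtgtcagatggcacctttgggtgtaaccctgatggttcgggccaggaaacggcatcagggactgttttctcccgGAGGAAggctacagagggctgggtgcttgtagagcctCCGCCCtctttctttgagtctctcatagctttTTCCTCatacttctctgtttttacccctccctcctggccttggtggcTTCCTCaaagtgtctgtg
Itgax: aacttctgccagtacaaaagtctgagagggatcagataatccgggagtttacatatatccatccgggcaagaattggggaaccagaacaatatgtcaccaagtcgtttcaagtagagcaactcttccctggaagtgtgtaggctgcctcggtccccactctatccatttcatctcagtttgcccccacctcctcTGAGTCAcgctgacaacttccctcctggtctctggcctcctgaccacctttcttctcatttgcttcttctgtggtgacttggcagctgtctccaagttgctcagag
Itgav: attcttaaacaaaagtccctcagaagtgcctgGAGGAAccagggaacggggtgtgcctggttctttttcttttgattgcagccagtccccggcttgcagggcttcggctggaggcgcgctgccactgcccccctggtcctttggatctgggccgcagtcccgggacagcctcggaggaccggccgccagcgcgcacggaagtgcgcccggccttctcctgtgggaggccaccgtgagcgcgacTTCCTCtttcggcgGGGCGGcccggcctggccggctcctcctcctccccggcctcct
Itgam had 3 matches to GAGGAA and 1 to GGGCGG, Itgax had 1 match to TGAGTCA and none to the other motifs, and Itgav had 2 matches to GAGGAA and 1 to GGGCGG. No match overlapped another. Among 32851 mouse windows of the same length, 28.3% held GAGGAA, 5.20% held TGAGTCA and 35.7% held GGGCGG, so that GAGGAA and GGGCGG are common letters in such windows. A match is a run of letters and not a measured binding site.

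Most integrin changes were found at 24 h, as the plot of log2 fold changes shows. Of the 10 genes, 5 were higher at 10 µg for 24 h than in untreated cells, 4 were lower and 1 did not pass the test. Over all genes tested, 70.3% were called in this comparison, 35.4% higher and 34.9% lower, so 9 of 10 is a count from a transcriptome in which most genes were called. The counts and medians given here include Itgad, which could enter the test only by being high at 24 h, and they are a description. The 1 µg 24 h group had 6 higher, 3 lower and 1 not called, where 61.8% of all genes were called, 30.8% higher and 31.0% lower. At 10 µg for 6 h, Itgax and Itgav were higher and the other 8 were not called, where 5.95% of all genes were called, 4.09% higher and 1.86% lower. None of the 10 was called at 1 µg for 6 h, where 0.00% of all genes were. In that comparison DESeq2 also called 0 genes, 337 genes had an unadjusted p under 0.05, and 0 of the integrins were among them. The 3 libraries of a group lay wholly above or below the 3 untreated ones for 10 members at 10 µg for 24 h and 7 at 1 µg for 24 h, where 72.2% and 64.7% of all genes did so. The same held for 3 members at 10 µg for 6 h and 1 at 1 µg for 6 h, where 27.3% and 10.9% of all genes did so. The members' median log2 fold change was 0.36 at 10 µg for 24 h, 0.21 at 1 µg for 24 h, 0.07 at 10 µg for 6 h and -0.04 at 1 µg for 6 h. The medians over all genes were 0.0095, 0.01, -0.0022 and -0.0023 in the same order. These comparisons share the untreated libraries.

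**Figure D1:**
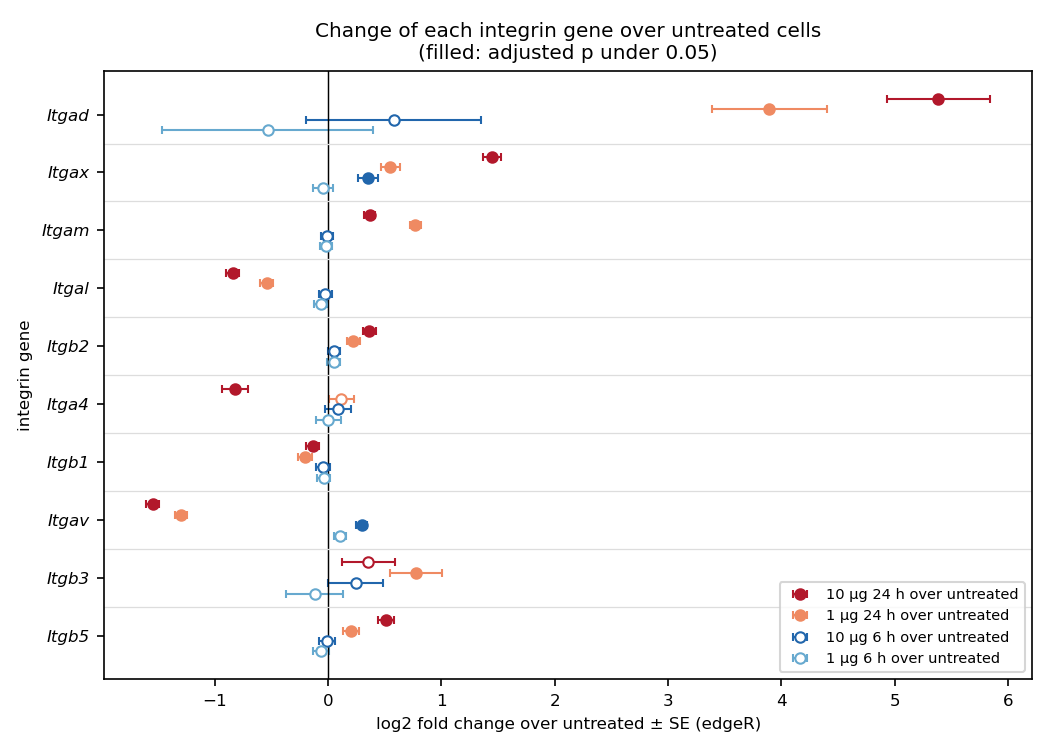
Log2 fold change over untreated cells (x axis) of each of the 10 integrin genes (y axis) in the 4 LCCL groups, with bars of 1 SE; filled points had an adjusted p under 0.05, which for Itgad is a description. Itgad and Itgax lie right of 0 and Itgav and Itgal left of 0 in both 24 h groups, while most 6 h points sit near 0.

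Itgb2, the β chain shared by the leukocyte integrins, changed little in proportion. It had 389.7, 386 and 394 CPM at 10 µg for 24 h and 313, 372 and 376 CPM at 1 µg for 24 h. The 6 h libraries held 306, 315 and 321 CPM at 10 µg and 322, 305 and 313 CPM at 1 µg, against 315, 289 and 304 CPM in untreated cells. The 10 µg 24 h libraries were the highest of all and close to each other, while 1 library of the 1 µg 24 h group, its first, lay within the untreated range. Itgb2 rose 1.29-fold at 10 µg for 24 h (log2 fold change 0.36 ± 0.06, adjusted p = 2.55e-06) and 1.17-fold at 1 µg for 24 h (log2 fold change 0.22 ± 0.06, adjusted p = 0.00126). The difference between the doses at 24 h did not pass the test (log2 fold change 0.14 ± 0.06, adjusted p = 0.0511). It passed with DESeq2 (adjusted p = 0.0498), and without replicate 2 or replicate 3 of 1 µg at 24 h (adjusted p = 0.0268 and 0.0133), in a range of 0.0133 to 0.34 over the alternatives. Without replicate 1 of 1 µg at 24 h it was 0.06 (adjusted p = 0.34).

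Itgam, which encodes αM of the complement receptor CR3 and is a standard macrophage marker, rose at both doses at 24 h and was higher at the lower dose. It had 265.4, 259.5 and 258 CPM at 10 µg for 24 h and 350.4, 328 and 353 CPM at 1 µg for 24 h. Its 6 h libraries held 194, 215 and 193 CPM at 10 µg and 203, 198 and 197 CPM at 1 µg, against 203, 193 and 209.9 CPM in untreated cells. All 3 libraries at 1 µg for 24 h lay above all 3 at 10 µg for 24 h, these lay above every untreated library, and the 6 h libraries overlapped the untreated ones. The rise over untreated cells was 1.29-fold at 10 µg (log2 fold change 0.37 ± 0.05, adjusted p = 2.75e-07) and 1.70-fold at 1 µg (log2 fold change 0.77 ± 0.05, adjusted p = 1.56e-12), and at 24 h the 10 µg group was below the 1 µg group by -0.40 ± 0.05 on the log2 scale (adjusted p = 4.35e-07). The annotation holds a second gene, Gm49368, on the same strand, and all 3450 of its exon bases lie within Itgam exons. Gm49368 averaged 12.8 ± 1.22 CPM at 10 µg for 24 h, 15.7 ± 4.01 CPM at 1 µg for 24 h and 7.34 ± 0.834 CPM in untreated cells, small beside Itgam. How the authors' counting divided shared reads is not stated in the labels, so these levels do not show how many Itgam reads, if any, were left out.

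Itgax, which encodes αX of the receptor CR4 and is widely used as a dendritic cell and tissue macrophage marker, was higher at 10 µg than at 1 µg at both times. It had 44.0, 40.2 and 44.9 CPM at 10 µg for 24 h and 22.3, 24.6 and 22.4 CPM at 1 µg for 24 h. After 6 h the values were 20.02, 19.7 and 20.7 CPM at 10 µg and 16.2, 16.6 and 13.2 CPM at 1 µg, against 14.5, 16.4 and 16.4 CPM in untreated cells. The 10 µg 24 h libraries stood above all others, the 1 µg 24 h libraries came next, the 10 µg 6 h libraries followed without overlapping either neighbour in that order, and the 1 µg 6 h libraries overlapped the untreated ones. Itgax rose 2.73-fold at 10 µg for 24 h (log2 fold change 1.45 ± 0.08, adjusted p = 3.58e-14), 1.46-fold at 1 µg for 24 h (log2 fold change 0.55 ± 0.08, adjusted p = 3.97e-06) and 1.28-fold at 10 µg for 6 h (log2 fold change 0.35 ± 0.09, adjusted p = 0.0128). It was higher at 10 µg than at 1 µg at 24 h (log2 fold change 0.90 ± 0.08, adjusted p = 1.92e-09) and at 6 h (log2 fold change 0.39 ± 0.09, adjusted p = 0.0117). Both calls at 6 h depended on single libraries. The one over untreated cells was lost without untreated replicate 1 (adjusted p = 0.0896) or 10 µg 6 h replicate 3 (0.0607), in a range of 0.00335 to 0.0896, and the one between doses was lost without 1 µg 6 h replicate 3 (0.106) or 10 µg 6 h replicate 3 (0.0677), in a range of 0.00339 to 0.106. The 6 dendritic cell markers, all low, summed to 1.36 to 2.17 CPM at 10 µg for 24 h and 1.81 to 2.65 CPM at 1 µg for 24 h, against 0.894 to 1.61 CPM in untreated cells, with Ccr7 at 0 throughout. Of these markers, Clec9a averaged 0.426 ± 0.132 CPM at 10 µg for 24 h and 0.532 ± 0.0874 CPM at 1 µg for 24 h. In untreated cells it averaged 0.128 ± 0.102 CPM, too low to carry it through the filter on low counts. Its fitted log2 fold changes over untreated cells, 1.68 ± 0.61 at 10 µg and 2.001 ± 0.58 at 1 µg, are thus a description. Zbtb46 was called higher at 1 µg for 24 h (0.98 ± 0.35), at 1.23 ± 0.498 CPM against 0.624 ± 0.144 CPM in untreated cells. The part of these markers in the Itgax result was not tested.

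Itgal, which encodes αL of LFA-1, the ICAM-1 receptor of lymphocytes and other leukocytes, went the other way. It had 43.5, 41.2 and 45.4 CPM at 10 µg for 24 h and 49.0, 54.1 and 57.2 CPM at 1 µg for 24 h. The 6 h groups had 76.6, 77.8 and 74.8 CPM at 10 µg and 75.8, 72.8 and 73.9 CPM at 1 µg, against 75.5, 81.9 and 75.4 CPM in untreated cells. The 6 libraries at 24 h were below all others, the 10 µg ones below the 1 µg ones, and the 6 h libraries were near the untreated ones. Itgal fell 1.79-fold at 10 µg for 24 h (log2 fold change -0.84 ± 0.06, adjusted p = 1.97e-12) and 1.45-fold at 1 µg for 24 h (log2 fold change -0.54 ± 0.06, adjusted p = 1.1e-08). Between the doses at 24 h it was lower at 10 µg (log2 fold change -0.30 ± 0.06, adjusted p = 0.000241).

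Itgad, which encodes αD, a β2 partner found on tissue and foam-cell macrophages, was close to absent outside the 24 h groups. Its read counts were 90, 139 and 113 at 10 µg for 24 h and 25, 42 and 63 at 1 µg for 24 h. At 6 h they were 3, 5 and 4 at 10 µg and 0, 4 and 1 at 1 µg, against 4, 2 and 2 in untreated cells. The 2 groups at 24 h did not overlap each other or any other group, and the 6 h and untreated libraries held at most 5 reads each. In CPM, the means were 5.60 ± 1.35 at 10 µg for 24 h, 2.01 ± 1.01 at 1 µg for 24 h and 0.129 ± 0.0578 in untreated cells. The summed counts gave a ratio to untreated cells of 43.6 at 10 µg (exact 95% Poisson interval 21.9 to 102) and 15.4 at 1 µg (7.58 to 36.4), intervals that cover counting error only. The fitted log2 fold changes over untreated cells were 5.39 ± 0.45 at 10 µg and 3.90 ± 0.51 at 1 µg. They are given as a description, with no p, since Itgad passed the filter on low counts through the 24 h libraries alone. Between the doses at 24 h, Itgad was higher at 10 µg (log2 fold change 1.49 ± 0.30, adjusted p = 0.000313). At 6 h the ratio to untreated cells was 1.52 (0.570 to 4.28) at 10 µg and 0.678 (0.175 to 2.35) at 1 µg, so no difference was detectable at this depth.

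Exons of Itgad overlap those of 4 annotated genes, of which 4931431B13Rik, Gm17831 and Gm39091 were not analysed here. The remaining one is Cox6a2, a mitochondrial cytochrome c oxidase subunit of heart and skeletal muscle, on the other strand. Itgad and Cox6a2 share 70 of the 680 exon bases of Cox6a2, in 4 of the 5 annotated Itgad transcripts. Cox6a2 had 7.91, 9.13 and 8.94 CPM at 10 µg for 24 h and 2.43, 2.59 and 8.08 CPM at 1 µg for 24 h. Its 6 h counts came to 0.232, 0.0510 and 0.0483 CPM at 10 µg and 0.213, 0.1001 and 0.159 CPM at 1 µg, against 0.0976, 0 and 0 CPM in untreated cells. Cox6a2 was thus also near 0 outside the 24 h groups, and its summed count exceeded that of Itgad at both doses at 24 h, 530 against 342 reads at 10 µg and 279 against 130 reads at 1 µg. The ratio of Cox6a2 to its untreated level, which rested on 2 reads, was 270.4 at 10 µg (exact 95% Poisson interval 74.5 to 2239) and 132 at 1 µg (36.2 to 1095). Libraries were made with a stranded kit, and the strand setting of the counting is not stated there. Without it, reads of Itgad and Cox6a2 in the shared bases cannot be told apart, and the part of Cox6a2 reads in the Itgad counts was not tested.

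**Figure D2:**
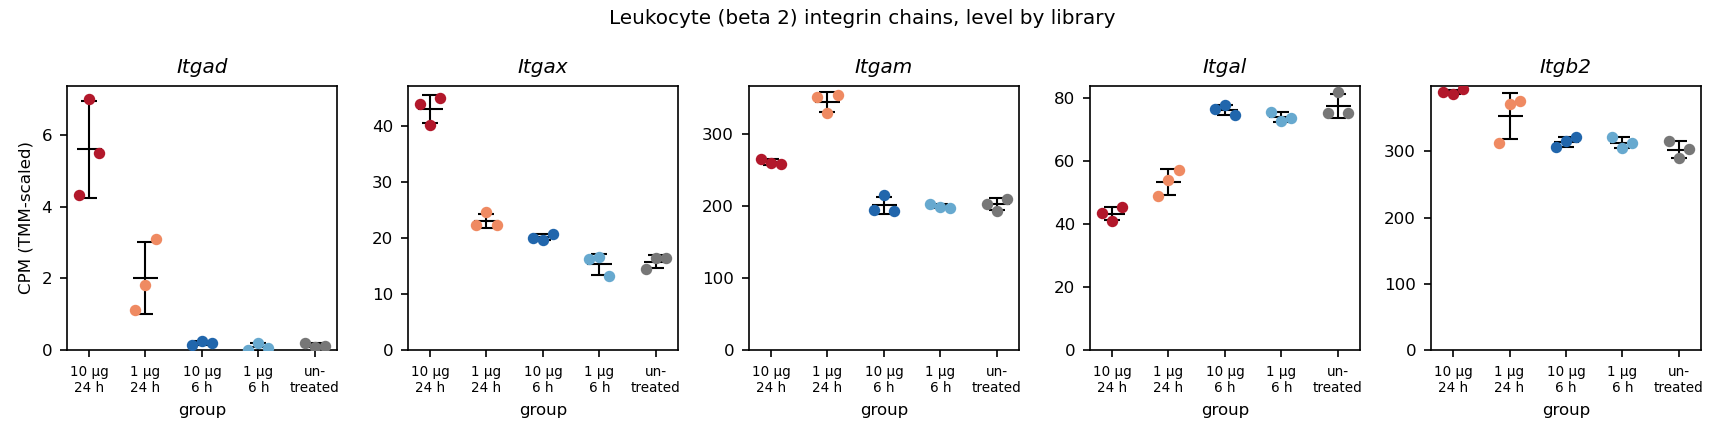
TMM-scaled CPM (y axis, from 0, own scale in each panel) of the 5 leukocyte integrin chains in the 5 groups; points are libraries, and bars give the mean ± SD of 3. Itgax and Itgad are highest at 10 µg for 24 h, Itgam is highest at 1 µg for 24 h, and Itgal is lowest in the 2 groups at 24 h.

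The make-up of the α transcripts that can pair with β2 differed between 24 h and the other groups. After division of each CPM by the gene's annotated exon length, Itgam made 75.6% ± 0.827 (SD, n = 3 here and below) of the 4 α transcripts at 10 µg for 24 h, 83.6% ± 1.20 at 1 µg for 24 h and 72.6% ± 1.64 in untreated cells. Itgal made 9.60% ± 0.405 at 10 µg for 24 h, 9.94% ± 0.737 at 1 µg for 24 h and 21.4% ± 1.40 in untreated cells. Itgax made 13.0% ± 0.630, 5.88% ± 0.516 and 5.93% ± 0.399 in the same groups. The mean share of Itgal was thus lower at both doses, that of Itgam higher at both and that of Itgax higher at 10 µg. Itgad reached 1.81% ± 0.460 at 10 µg for 24 h, against 0.0516% ± 0.0236 in untreated cells, and so stayed a minor chain. The length-scaled ratio of Itgam to Itgal was 7.88 ± 0.411 at 10 µg for 24 h and 8.45 ± 0.776 at 1 µg for 24 h. It was 3.43 ± 0.152 at 10 µg for 6 h and 3.52 ± 0.0414 at 1 µg for 6 h, against 3.41 ± 0.292 in untreated cells. Ranges of this ratio at 24 h did not overlap those of the other groups, and the ranges of the 2 doses at 24 h overlapped each other. The ratio of Itgax to Itgam separated the doses instead, at 0.173 ± 0.00999 at 10 µg for 24 h, 0.0703 ± 0.00691 at 1 µg for 24 h and 0.0818 ± 0.00694 in untreated cells. The summed α transcripts over Itgb2 were 0.538 ± 0.00594 at 10 µg for 24 h and 0.712 ± 0.0791 at 1 µg for 24 h, against 0.558 ± 0.0227 in untreated cells. These shares and ratios are descriptions with no test. Itgam shares 3450 of its 5024 exon bases with Gm49368, and how reads there were counted is not stated. The length-scaled level of Itgam could be too low if such reads were left out.

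**Figure D3:**
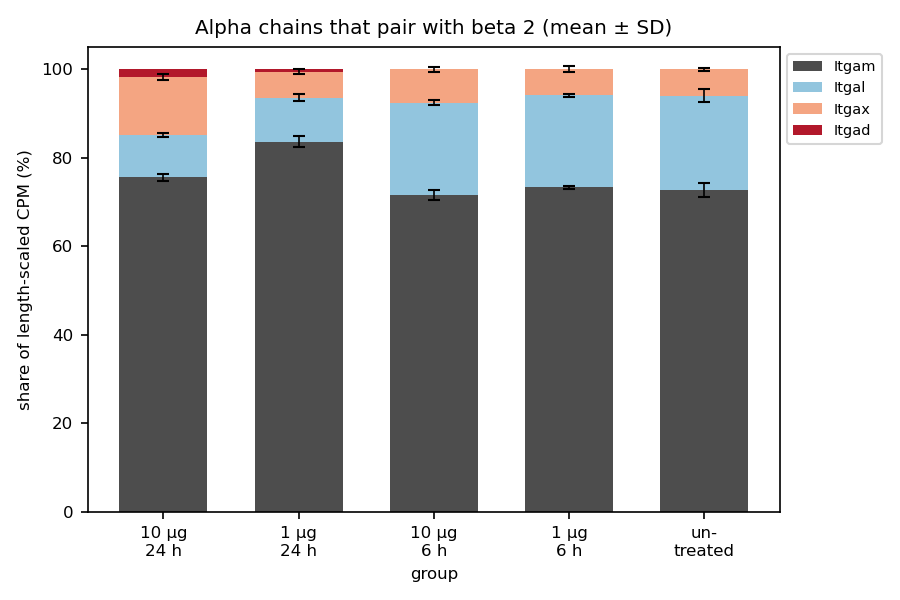
Share of the 4 α chains that pair with β2 (y axis, % of summed CPM per exon length) in the 5 groups. Stacked bars are means of 3 libraries, with the SD of each share except that of Itgad. Itgal takes about the same small share in both 24 h groups, and Itgax takes 13.0% at 10 µg for 24 h.

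Itga4, which encodes α4 of VLA-4, a receptor for VCAM-1 and fibronectin, had the highest CPM of the 10 genes and fell at 10 µg for 24 h. It had 914, 833 and 798 CPM at 10 µg for 24 h and 2041, 1446 and 1392 CPM at 1 µg for 24 h. After 6 h its level was 1641, 1589 and 1549 CPM at 10 µg and 1483, 1521 and 1502 CPM at 1 µg, against 1446, 1513 and 1537 CPM in untreated cells. The 3 libraries at 10 µg for 24 h were below all 12 others, and replicate 1 of 1 µg at 24 h was above all others. Itga4 fell 1.77-fold at 10 µg for 24 h (log2 fold change -0.82 ± 0.11, adjusted p = 2.17e-05) and was not called at 1 µg for 24 h (log2 fold change 0.12 ± 0.11, adjusted p = 0.381). Without replicate 1 of 1 µg at 24 h that value was -0.08 (adjusted p = 0.156, in a range of 0.0962 to 0.568), so its sign rested on that library. The difference between the doses at 24 h was -0.94 ± 0.11 (adjusted p = 2.52e-05) and -0.74 (adjusted p = 9.84e-13) without that library. Exons of Cerkl lie on the other strand in 1 of the 5 annotated Itga4 transcripts. The 2 genes share 1124 exon bases. Cerkl averaged 12.8 ± 1.97 CPM at 10 µg for 24 h, against 11.8 ± 1.15 CPM in untreated cells, and its change there was not called (log2 fold change 0.11 ± 0.14). At 1 µg for 24 h Cerkl had 19.0, 13.3 and 13.0 CPM and was called higher (log2 fold change 0.36 ± 0.13, adjusted p = 0.0224). The highest of these was replicate 1, as for Itga4, and no value of Cerkl without that library is given. The part of Cerkl reads in the Itga4 counts was not tested.

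Itgb1, which encodes the β1 chain shared by α4, αv and most matrix receptors, stayed close to its untreated level. It had 249, 269.5 and 264 CPM at 10 µg for 24 h and 218, 272 and 257 CPM at 1 µg for 24 h. The groups taken at 6 h had 286, 269 and 278 CPM at 10 µg and 288, 276 and 273 CPM at 1 µg, against 282, 294 and 283 CPM in untreated cells. The 24 h libraries were all below the untreated ones, with replicate 1 of 1 µg at 24 h the lowest of the 15. Itgb1 was 1.10-fold lower at 10 µg for 24 h (log2 fold change -0.14 ± 0.06, adjusted p = 0.0436) and 1.15-fold lower at 1 µg for 24 h (log2 fold change -0.20 ± 0.06, adjusted p = 0.0042). The 10 µg call was lost when any of 5 of the 6 libraries compared was left out, all but 10 µg 24 h replicate 2, with adjusted p of 0.0615 to 0.163. At 1 µg for 24 h the change was -0.12 (adjusted p = 0.0282) without replicate 1 of 1 µg at 24 h. The length-scaled ratio of Itga4 to Itgb1 was 0.952 ± 0.104 at 10 µg for 24 h, against 1.53 ± 0.0504 in untreated cells, with ranges of 0.882 to 1.07 and 1.50 to 1.59 that did not overlap. At 1 µg for 24 h it was 2.74 in the first library and 1.55 and 1.58 in the others. This ratio used exon length. Per kilobase of coding length, Itga4 had 274 CPM and Itgb1 109 CPM at 10 µg for 24 h, against 484 and 120 CPM in untreated cells. Whether the ratio lies above or below 1 at 10 µg for 24 h thus depends on the length used.

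Itgav, which encodes the αv chain of the vitronectin and osteopontin receptors, changed furthest among the abundant members and in opposite directions at the 2 times. It had 66.1, 63.0 and 57.1 CPM at 10 µg for 24 h and 78.5, 73.6 and 69.6 CPM at 1 µg for 24 h. At 6 h it had 233, 217 and 217 CPM at 10 µg and 189.6, 199 and 197 CPM at 1 µg, against 183, 183 and 179 CPM in untreated cells. The 5 groups did not overlap, with the order 10 µg 6 h, 1 µg 6 h, untreated, 1 µg 24 h and 10 µg 24 h from high to low. Itgav fell 2.92-fold at 10 µg for 24 h (log2 fold change -1.55 ± 0.06, adjusted p = 8.96e-18) and 2.45-fold at 1 µg for 24 h (log2 fold change -1.29 ± 0.05, adjusted p = 6.68e-16), and it rose 1.23-fold at 10 µg for 6 h (log2 fold change 0.30 ± 0.05, adjusted p = 0.000709). At 1 µg for 6 h its 3 libraries were above the untreated ones, as 10.9% of all genes also stood apart in 1 direction or the other, and the change was not called (log2 fold change 0.11 ± 0.05, adjusted p = 1). The 10 µg group was below the 1 µg group at 24 h (log2 fold change -0.25 ± 0.06, adjusted p = 0.000914) and above it at 6 h (log2 fold change 0.19 ± 0.05, adjusted p = 0.0489). The 6 h difference between the doses was lost with RLE scaling (adjusted p = 0.064) and when any 1 of the 6 libraries compared was left out (adjusted p of 0.107 to 0.25), and its alternatives spanned 0.000479 to 0.25. Exons of Gm13684, which was not analysed here, lie on the other strand in 1 of the 9 annotated Itgav transcripts.

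In a joint test of the 4 comparisons with untreated cells, Itgav ranked 18 by p among the 12401 genes, ahead of the other 9 members, of which Itgax came next at rank 524. The 3 genes whose 4 log2 fold changes were nearest to those of Itgav were Niban2, Odc1 and Otulin, with mean absolute differences of 0.0910, 0.0932 and 0.1003 over the 4 comparisons, which share the untreated libraries. Niban2 averaged 326 ± 18.03 CPM at 10 µg for 24 h and 963 ± 13.2 CPM at 10 µg for 6 h, against 836 ± 16.7 CPM in untreated cells. Odc1, the first enzyme of polyamine synthesis, averaged 51.7 ± 5.07, 186 ± 3.21 and 138 ± 7.36 CPM in the same groups. Otulin, a deubiquitinase of linear ubiquitin chains, averaged 289.5 ± 7.46, 1129 ± 31.2 and 798 ± 21.6 CPM. All 3 were chosen for their likeness to Itgav, so these levels are a description.

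The β5 and β3 partners of αv did not fall with it. Itgb5, which encodes β5 of the vitronectin receptor αvβ5, had 56.8, 62.4 and 64.9 CPM at 10 µg for 24 h and 44.0, 48.9 and 55.7 CPM at 1 µg for 24 h. Its values at 6 h were 41.2, 43.3 and 44.1 CPM at 10 µg and 42.7, 39.2 and 42.1 CPM at 1 µg, against 43.5, 41.7 and 44.1 CPM in untreated cells. The 10 µg 24 h libraries were above all others and the 1 µg 24 h libraries spanned from the untreated range upwards. Itgb5 rose 1.42-fold at 10 µg for 24 h (log2 fold change 0.51 ± 0.07, adjusted p = 4.43e-07) and 1.15-fold at 1 µg for 24 h (log2 fold change 0.20 ± 0.07, adjusted p = 0.0162), and was higher at 10 µg than at 1 µg at 24 h (log2 fold change 0.31 ± 0.07, adjusted p = 0.000878). The 1 µg call was lost without untreated replicate 2 (adjusted p = 0.0718) or 1 µg 24 h replicate 3 (0.192), in a range of 0.000955 to 0.192.

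Itgb3, which encodes β3 of αvβ3, the main integrin of osteoclasts, was low throughout. It had 2.73, 3.33 and 3.06 CPM at 10 µg for 24 h and 5.65, 3.63 and 2.86 CPM at 1 µg for 24 h. In the 6 h groups it had 3.34, 2.55 and 2.51 CPM at 10 µg and 2.51, 2.55 and 1.48 CPM at 1 µg, against 2.63, 2.10 and 2.38 CPM in untreated cells. All 6 libraries at 24 h lay above the untreated ones, the first 1 µg 24 h library was the highest, and both 24 h groups overlapped the 10 µg 6 h group. Itgb3 rose at 1 µg for 24 h (log2 fold change 0.78 ± 0.23, adjusted p = 0.00509), a call lost without that library (log2 fold change 0.45, adjusted p = 0.0887, in a range of 0.00083 to 0.0887). The 10 µg 24 h change was not called (log2 fold change 0.36 ± 0.24, adjusted p = 0.184), nor was the difference between the doses at 24 h (log2 fold change -0.42 ± 0.22, adjusted p = 0.155), which was -0.10 (adjusted p = 0.787) without replicate 1 of 1 µg at 24 h. At 1 µg, Itgb3 was higher at 24 h than at 6 h (log2 fold change 0.89 ± 0.23, adjusted p = 0.00196), by 0.57 (adjusted p = 0.0363) without that library, in a range of 0.000323 to 0.0363. The 6 osteoclast markers summed to 2837 to 3216 CPM at 10 µg for 24 h and 2018 to 2154 CPM at 1 µg for 24 h, against 2317 to 2456 CPM in untreated cells. Ctsk, a collagen-degrading protease, carried nearly all of that sum (2966 ± 217 CPM at 10 µg for 24 h, against 2219 ± 75.5 CPM in untreated cells). At 10 µg for 24 h, Ctsk (0.42 ± 0.05 on the log2 scale) and Mmp9 (1.64 ± 0.30) rose, while Ocstamp (-3.82 ± 0.26) and Dcstamp (-0.51 ± 0.07), which act in osteoclast fusion, fell. At 1 µg for 24 h, Ctsk, Acp5, Dcstamp and Ocstamp fell, and the part of osteoclast markers in the Itgav, Itgb3 and Itgb5 results was not tested. The length-scaled ratio of Itgav to the sum of Itgb3 and Itgb5 was 0.327 ± 0.0457 at 10 µg for 24 h and 0.475 ± 0.0730 at 1 µg for 24 h. It was 1.65 ± 0.114 at 10 µg for 6 h and 1.52 ± 0.0971 at 1 µg for 6 h, against 1.35 ± 0.0545 in untreated cells. All 24 h values of the ratio were below 0.548 and all others above 1.29. The ratio used exon length, and its sum leaves out Itgb1, also a partner of αv. Per kilobase of coding length, Itgav had 23.6 CPM at 1 µg for 24 h, Itgb5 20.2 CPM and Itgb3 1.71 CPM, so the size of the ratio depends on the length used.

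**Figure D4:**
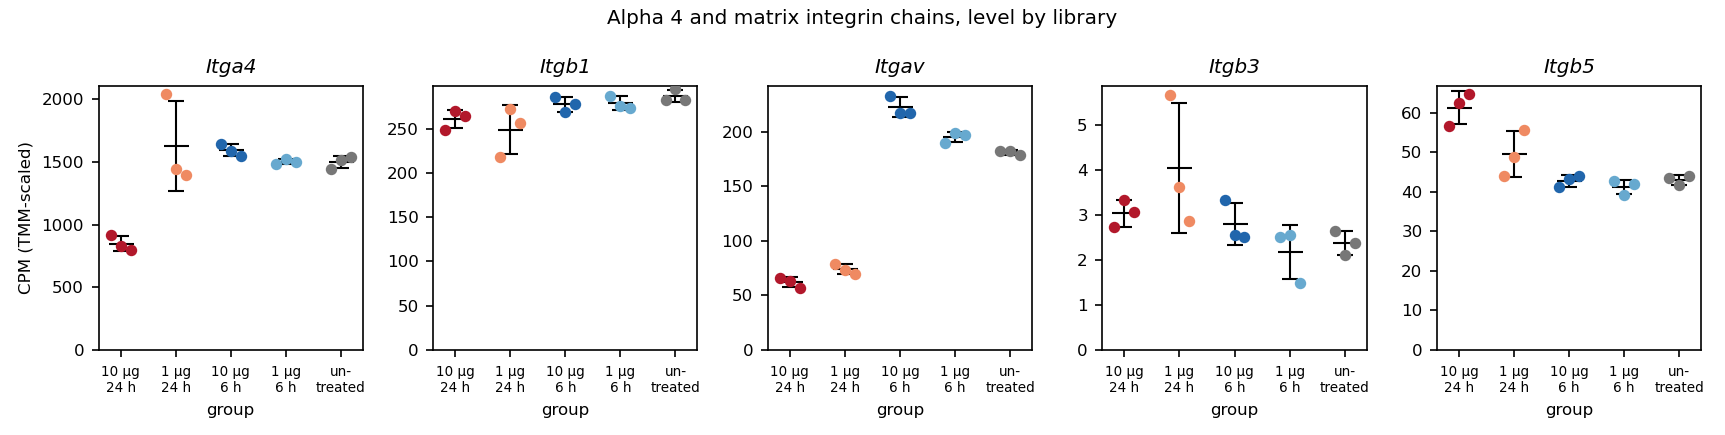
TMM-scaled CPM (y axis, from 0, own scale in each panel) of Itga4, Itgb1, Itgav, Itgb3 and Itgb5 in the 5 groups; points are libraries, and bars give the mean ± SD of 3. Itgav is lowest in both 24 h groups, Itga4 is lowest at 10 µg for 24 h, and Itgb5 is highest there.

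Compared per kilobase of annotated exon, Itga4 and Itgb2 led in untreated cells and Itgad came last. Untreated levels were 107 ± 3.36 CPM per kb for Itga4, 99.2 ± 4.21 for Itgb2, 70.2 ± 1.67 for Itgb1, 40.2 ± 1.66 for Itgam and 16.9 ± 0.209 for Itgav. Itgb5 (12.1 ± 0.357) and Itgal (11.8 ± 0.572) followed with overlapping libraries, then Itgax (3.28 ± 0.231), Itgb3 (0.402 ± 0.0455) and Itgad (0.0285 ± 0.0128). At 10 µg for 24 h, Itgb2 came first at 128 ± 1.17 CPM per kb, and Itgb1 (63.9 ± 2.60) and Itga4 (60.7 ± 4.25) came next with overlapping libraries. Itgam followed at 51.9 ± 0.783, Itgb5 at 17.3 ± 1.17, Itgax at 8.96 ± 0.515, Itgal at 6.60 ± 0.321, Itgav at 5.78 ± 0.426, Itgad at 1.24 ± 0.300 and Itgb3 at 0.515 ± 0.0507, none of these overlapping its neighbour. Itgav thus ranked 8 at 10 µg for 24 h, against 5 in untreated cells, and Itgax ranked 6, against 8. These places depended on the length used. By coding length, Itgav ranked 6 at 10 µg for 24 h, against 4 in untreated cells, and Itgax ranked 7, against 8. Itga4 has long annotated non-coding exons, and per kilobase of coding length it came first in both groups, at 274 CPM per kb at 10 µg for 24 h and 484 in untreated cells. The place of Itgam also depends on how reads in the exon bases shared with Gm49368 were counted, which is not stated.

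The doses were then compared with each other, and the times with each other. At 24 h, 3 members were higher at 10 µg than at 1 µg (Itgad, Itgax and Itgb5), 4 were lower (Itgam, Itgal, Itga4 and Itgav) and 3 did not pass the test, where 35.3% of all genes were called, 16.0% higher and 19.3% lower. At 6 h, Itgax and Itgav were higher at 10 µg and 8 were not called, where 2.35% of all genes were called, 1.85% higher and 0.492% lower. Libraries of the 2 doses did not overlap for 8 members at 24 h and 3 at 6 h, where 41.2% and 24.1% of all genes stood apart in this way. The members' median difference between doses was -0.09 at 24 h and 0.07 at 6 h, against -0.0096 and 0.00020 over all genes. The times were compared at one dose. At 10 µg, 5 members were higher at 24 h than at 6 h and 3 were lower, where 69.2% of all genes were called, 34.0% higher and 35.2% lower. At 1 µg, 6 were higher and 3 were lower, where 60.7% of all genes were called, 30.3% higher and 30.5% lower. Libraries of the 2 times did not overlap for 8 members at 10 µg and 8 at 1 µg, where 72.1% and 65.5% of all genes stood apart. These counts between times include Itgad, which could enter the test only by being high at 24 h, and they are a description. Itgav had the largest fall at both doses, by 1.84 ± 0.06 at 10 µg and by 1.40 ± 0.05 at 1 µg on the log2 scale. Itgb1 was not called between times at 10 µg (adjusted p = 0.175). Its call at 1 µg (adjusted p = 0.018) was lost without replicate 1 of 1 µg at 24 h (adjusted p = 0.128), without 1 µg 6 h replicate 1 (0.0616) and with the 2 groups fitted alone (0.0758), in a range of 0.00126 to 0.128. That of Itgb2 at 1 µg (log2 fold change 0.17 ± 0.06, adjusted p = 0.0093) was lost without replicate 2 or replicate 3 of 1 µg at 24 h (adjusted p = 0.0625 and 0.0759), in a range of 2.4e-05 to 0.0759.

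The change between 6 h and 24 h differed between the doses for 5 members, where 18.6% of all genes were called for this interaction. A positive value means a larger increase, or a smaller decrease, at 10 µg than at 1 µg. Itgax was the member with a positive call (0.50 ± 0.12, adjusted p = 0.00318). Its 24 h over 6 h change was 1.10 at 10 µg and 0.59 at 1 µg. Itga4 had the largest negative value (-1.02 ± 0.16, adjusted p = 0.000718), with changes of -0.91 at 10 µg and 0.11 at 1 µg, and it was -0.83 (adjusted p = 4.26e-10) without replicate 1 of 1 µg at 24 h. Itgav (-0.44 ± 0.08, adjusted p = 0.000216), Itgam (-0.41 ± 0.07, adjusted p = 0.000182) and Itgal (-0.34 ± 0.08, adjusted p = 0.0039) were also called. The interaction of Itgad was not called (log2 fold change 0.38 ± 1.14, adjusted p = 0.869), with an SE that left it poorly determined at the few reads of its 6 h libraries.

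Other chains of the integrin family were read beside the members. Of the 16 other integrin subunit genes, 9 were tested; 4 were higher and 2 were lower at 10 µg for 24 h and 4 were higher and 2 were lower at 1 µg for 24 h, with median log2 fold changes of 0.64 and 0.47, against 0.0095 and 0.01 over all genes, where 70.3% and 61.8% of all genes were called. Itga5, whose α5 chain pairs with β1 as the main fibronectin receptor, was also lower at 24 h and higher at 10 µg for 6 h. It averaged 151 ± 11.8 CPM at 10 µg for 24 h, 152 ± 9.02 CPM at 1 µg for 24 h and 392 ± 7.19 CPM at 10 µg for 6 h, against 290.1 ± 1.69 CPM in untreated cells. It fell by 0.95 ± 0.05 and 0.93 ± 0.05 on the log2 scale at 10 µg and at 1 µg for 24 h, and rose by 0.44 ± 0.05 at 10 µg for 6 h. Itgb7, the other β partner of α4, averaged 18.9 ± 1.89 CPM at 10 µg for 24 h, against 9.16 ± 0.713 CPM in untreated cells, and rose there (1.04 ± 0.17). Itga7, a laminin receptor chain, averaged 11.3 ± 1.64 CPM at 10 µg for 24 h, against 5.51 ± 0.285 CPM in untreated cells, and also rose (1.03 ± 0.13). Itga6 fell (-2.11 ± 0.41 at 10 µg for 24 h) and was at most 0.998 ± 0.331 CPM on average in these groups, and Itgb4, its β partner, rose at 1 µg for 24 h (0.98 ± 0.31) at 1.61 ± 0.677 CPM, against 0.812 ± 0.109 CPM in untreated cells.

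Among 16 tested of 20 genes of integrin activation and inside-out signalling, 6 were higher and 4 were lower at 10 µg for 24 h. At 1 µg for 24 h, 5 were higher and 4 were lower, and none was called at 6 h. The list was not split by whether a gene promotes or restrains activation. Over all genes, 70.3% were called at 10 µg for 24 h and 61.8% at 1 µg for 24 h. At 6 h, 5.95% of all genes were called at 10 µg and 0.0% at 1 µg. The list's median log2 fold changes at 24 h were 0.09 at 10 µg and 0.05 at 1 µg. Rapgef2, an exchange factor for the GTPase Rap1, averaged 119 ± 1.44 CPM at 10 µg for 24 h, against 79.7 ± 3.90 CPM in untreated cells, and rose (0.58 ± 0.05). Rapgef1, another such factor, fell (-0.23 ± 0.05), as did Flna, a filamin that binds β tails (-0.40 ± 0.07). Fermt3, the kindlin of blood cells, which is needed for β2 integrin activation, averaged 243 ± 5.38 CPM at 10 µg for 24 h, against 292 ± 10.7 CPM in untreated cells, and fell (-0.27 ± 0.05). At 1 µg for 24 h, Rap1a (0.68 ± 0.14) and its effector Rassf5 (0.48 ± 0.14) rose.

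In the list of adhesion site and outside-in signalling genes, 26 of 28 were tested; 6 were higher and 14 were lower at 10 µg for 24 h and 7 were higher and 11 were lower at 1 µg for 24 h, with median log2 fold changes of -0.16 and -0.10. Over all genes, 35.4% were higher and 34.9% were lower at 10 µg for 24 h, 30.8% were higher and 31.0% were lower at 1 µg for 24 h, and the medians were 0.0095 and 0.01. Those lower included the actin-linking genes Parvb (92.3 ± 6.10 CPM at 10 µg for 24 h, against 161 ± 2.91 CPM in untreated cells, log2 fold change -0.81 ± 0.05) and Actn1 (213 ± 20.7 against 311 ± 2.53 CPM, -0.54 ± 0.06). Src, a tyrosine kinase, rose at 10 µg for 24 h and for 6 h (1.04 ± 0.07 and 0.65 ± 0.07) and averaged 58.9 ± 3.29 and 45.2 ± 2.37 CPM there, against 28.7 ± 2.41 CPM in untreated cells. Vav3, an adaptor and exchange factor, rose at 10 µg for 24 h (0.71 ± 0.07). Of the 26, 4 were called at 10 µg for 6 h, all higher: Src, Tns3 (0.36 ± 0.05), Fgr (0.21 ± 0.05) and Syk (0.16 ± 0.04), the last a kinase that acts below β2 integrins. Over all genes, 5.95% were called at 10 µg for 6 h, 4.09% higher and 1.86% lower. Tns3 was lower at 1 µg for 24 h (-0.47 ± 0.05).

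Of 30 integrin ligand genes, 13 were tested; 5 were higher and 2 were lower at 10 µg for 24 h and 5 were higher and 4 were lower at 1 µg for 24 h, with median log2 fold changes of 0.11 and -0.06, where 70.3% and 61.8% of all genes were called. C3, whose fragment iC3b is bound by αMβ2 and αXβ2, averaged 23.5 ± 2.11 CPM at 10 µg for 24 h and 19.0 ± 2.84 CPM at 1 µg for 24 h, against 5.29 ± 0.130 CPM in untreated cells. C3 rose at both doses (2.15 ± 0.13 and 1.84 ± 0.13). Edil3, an RGD protein that binds αv integrins, rose (0.85 ± 0.10 at 10 µg for 24 h), and so did Icam5, an αLβ2 ligand (1.00 ± 0.17). Jam3, an αMβ2 ligand, averaged 1.29 ± 0.237 CPM at 10 µg for 24 h, against 3.63 ± 0.135 CPM in untreated cells, and fell (-1.49 ± 0.22). Mfge8, which bridges apoptotic cells to αvβ3 and αvβ5, averaged 89.6 ± 4.86 CPM at 10 µg for 24 h and 65.8 ± 2.61 CPM at 1 µg for 24 h, against 76.0 ± 1.90 CPM in untreated cells. It was lower at 1 µg for 24 h than in untreated cells (-0.21 ± 0.05) and higher at 10 µg than at 1 µg at 24 h (0.44 ± 0.05). At 10 µg for 6 h, where 5.95% of all genes were called, the 3 ligand genes called were Icam1 (0.29 ± 0.05), Spp1, which encodes osteopontin (0.21 ± 0.06), and C3 (0.46 ± 0.14). Those of Spp1 (adjusted p = 0.0317) and C3 (adjusted p = 0.0478) were near the threshold.

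Of 14 surface partners of integrins, 13 were tested; 6 were higher and 4 were lower at 10 µg for 24 h and 6 were higher and 6 were lower at 1 µg for 24 h, with median log2 fold changes of -0.04 and 0.11, where 70.3% and 61.8% of all genes were called. Cd82, a tetraspanin, averaged 114 ± 7.33 CPM at 10 µg for 24 h, against 55.0 ± 1.44 CPM in untreated cells, and rose (1.05 ± 0.05). Slc3a2, the CD98 heavy chain, which binds β1 and β3 tails, averaged 357 ± 20.6 CPM at 10 µg for 24 h, against 185 ± 6.85 CPM in untreated cells, and rose (0.94 ± 0.05). The tetraspanin Cd37 rose as well (0.51 ± 0.05), while Cd44, a hyaluronan receptor, averaged 430.0 ± 12.9 CPM at 10 µg for 24 h, against 617 ± 5.53 CPM in untreated cells, and fell (-0.52 ± 0.05). Cd82 (0.22 ± 0.06), Cd9 (0.20 ± 0.05) and Plaur, the urokinase receptor (0.31 ± 0.09), were called higher at 10 µg for 6 h, where 5.95% of all genes were called. The call of Plaur was near the threshold (adjusted p = 0.0456).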

How the data were processed

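RNA from 15 libraries of RAW264.7 cells was sequenced after preparation with a stranded mRNA kit, per the labels' protocols. The authors deposited raw whole-number counts per gene symbol, 1 column per library, and 0 columns were left unmatched. The genome build is GRCm39, per the submitters' processing notes. The sources used here do not name the aligner, the counting tool, its strand setting or the annotation.

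The analysis used edgeR 4.0.16 under R 4.3.3. Genes were kept by filterByExpr at its defaults (minimum count 10), which left 12401 of 25639 symbols with 99.97% of the counts. Libraries were scaled by TMM. The 5 groups were fitted together (glmQLFit, robust, 10 residual degrees of freedom, common coefficient of variation 5.68%), contrasts were tested two-sided with glmQLFTest, and Benjamini-Hochberg adjustment ran over all genes tested, with a threshold of 0.05. The script was tested on simulated data. Levels are CPM on the TMM-adjusted library sizes. Lengths, overlaps and positions are from the GENCODE annotation of GRCm38 and start-site sequences from RefSeq GRCm38.p6, matched by symbol. Library totals of 19085148 to 22434642 counts make 1 read worth about 0.05 CPM, and Poisson intervals cover counting error only.

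The 9 comparisons were the 4 LCCL groups with untreated cells, the doses at each time, the times at each dose, and the interaction. Alternatives were DESeq2 1.42.0, RLE scaling, no filter on low counts, only the groups compared fitted, the replicate number as a block, and each library left out. The 10 members, the gene lists and the tests were chosen with earlier results of these data known. Named genes were the 10 members, genes whose exons overlap a member, up to 4 called genes of each list with the smallest p in a comparison, and the 3 genes nearest to the member with the smallest joint p.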

Additional observations from a re-analysis of the deposited data

Results flagged for a closer look

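For 5 integrins the change between 6 h and 24 h differed between 10 µg and 1 µg by the interaction test (edgeR's quasi-likelihood test). Over all genes tested, 18.6% were called for this interaction. The difference, as log2 units of 10 µg minus 1 µg, was 0.50 for Itgax, -0.41 for Itgam, -0.34 for Itgal, -1.02 for Itga4 and -0.44 for Itgav. For Itgax the 24 h over 6 h change was larger at 10 µg, for Itgam it was smaller at 10 µg, and for Itgal and Itgav the fall was deeper at 10 µg. Itga4 was called lower at 24 h at 10 µg (-0.91 ± 0.11) and was not called at 1 µg (0.11 ± 0.11). Each of the 5 kept its sign and stayed under the threshold in all 17 alternatives.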

How the results depend on the processing

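Of 1050 recomputed log2 fold changes of the members, 994 kept their direction and their side of the threshold. All calls of Itgax, Itgam, Itgal and Itgav against untreated cells at 24 h were among them. The 1050 include values of Itgad, which at 24 h against the other groups are a description. Counts of genes called are not part of the 1050, and several of them moved. Fitting only the 2 groups compared gave 1450 genes called at 10 µg for 6 h against untreated cells, where the fit of all groups gave 738, and 1025 between the doses at 6 h, where it gave 291. With no filter on low counts, 1 gene was called at 1 µg for 6 h, and with RLE scaling 1 member was called between the doses at 6 h. Leaving out 1 library gave 0 to 1 genes at 1 µg for 6 h and 394 to 466 at 10 µg for 6 h, with 1 to 2 members, and 115 to 163 genes between the doses at 6 h, with 0 to 1 members. The cause was not tested.

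Signs turned for values that were not called, most of them near 0, while those of Itgad were larger and poorly determined. Leaving out 1 library at a time gave, against untreated cells at 1 µg for 6 h, -2.04 to 0.00696 for Itgad, -0.105 to 0.0547 for Itgax, -0.0483 to 0.00984 for Itgam, -0.0220 to 0.0214 for Itga4 and -0.249 to 0.0959 for Itgb3. At 10 µg for 6 h it gave -0.0605 to 0.0190 for Itgam, -0.0435 to 0.0188 for Itgal and -0.0301 to 0.0221 for Itgb5. Between the doses at 6 h it gave -0.0419 to 0.0363 for Itgam, -0.0275 to 0.0159 for Itgb1 and -0.0166 to 0.0221 for Itgb2, which was -0.00516 with DESeq2 and with RLE scaling. The lowest value without 1 library, in each case without replicate 1 of 1 µg at 24 h, belonged to Itga4 at 1 µg for 24 h against untreated cells (-0.0835 to 0.214) and between times at 1 µg (-0.0882 to 0.209), and to Itgb1 between the doses at 24 h (-0.0189 to 0.136) and for the interaction (-0.0118 to 0.143). The interaction of Itgad gave -1.13 to 0.917.

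Libraries with the same replicate number in different groups did not deviate together (correlations of -0.0946 to 0.106 over 30 pairs, 1 of them over 0.1), so the numbers were not taken to pair them. With the replicate number as a block, 9 members were called at each dose at 24 h, counts that include Itgad, 2 at 10 µg for 6 h and 0 at 1 µg for 6 h. Of all 12401 genes, the same fit called 8630 at 10 µg for 24 h, 7601 at 1 µg for 24 h, 708 at 10 µg for 6 h and 0 at 1 µg for 6 h.

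Depth limits Itgad, Itgb3 and Cox6a2, whose 3 libraries together held, in each 6 h group and in untreated cells, 5 to 12 reads of Itgad, 126 to 174 of Itgb3 and at most 9 of Cox6a2.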
